A study of Mus musculus with 26 samples.

Results

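Genes that write or erase methylation of lysine 4 on histone H3 (H3K4) were examined for the mark their own products control, 10 in all: the methyltransferase genes Kmt2a, Kmt2b, Kmt2c, Kmt2d, Setd1a and Setd1b, the SETD1 complex gene Cxxc1, and the demethylase genes Kdm5a, Kdm5b and Kdm5c. They were chosen by name, 10 of the 21887 protein-coding genes compared, and every peak of trimethylated H3K4 (H3K4me3) that met a gene's mm10 span or the 5 kb on either side of it was taken. The study follows mouse progenitors that lack the transcription factor Ebf1 into early B or early T cells, and its samples of microRNA, Ago2 and Early-T cells were not used here. The progenitor group was Ebf1-/- cells, whose culture the labels do not describe. The Early-B group was the same Ebf1-/- progenitors carrying the retroviral construct MigR1-EBF1.ER, an EBF1 fused to an oestrogen receptor domain that 4-hydroxytamoxifen activates, and kept for 2 days on OP9 stroma with SCF, FLT3-L and IL-7. Both groups therefore lack the endogenous Ebf1 product, and in Early-B cells EBF1 comes from the construct. For each group the labels name 2 input samples and 2 precipitated samples, with ab8580 as the antibody of the precipitation. In each group 1 peak list was read, so no comparison below has a replicate or a test.

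H3K4me3 sits around the starts of genes that are active or poised for activity. In mammals it is laid down by complexes built around SETD1A, SETD1B, KMT2A or KMT2B, which share the core subunits WDR5, RBBP5, ASH2L and DPY30, while the related KMT2C and KMT2D are best known for monomethylation of H3K4 at enhancers. CXXC1 (CFP1) holds a zinc finger that binds unmethylated CG dinucleotides and is a subunit of the SETD1 complexes. The KDM5 enzymes remove the trimethyl and dimethyl forms. KMT2A is known in blood as the gene rearranged in a group of acute leukaemias, and KMT2D is often mutated in B-cell lymphoma.

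There were 48054 peaks for Early-B cells and 31414 for progenitors. Pileup (fragments stacked over a peak), fold and −log10 p are the authors' own values and were used to describe and rank peaks within 1 list. The median start-peak pileup differed between the lists, at 122 in Early-B cells and 157 in progenitors. Each gene's place is therefore given as a percentile of start-peak pileup among the same 11118 genes in both lists. Pileups of peaks other than start peaks are given without a percentile, except at Kdm5b. The difference between the lists enters into those pileups and was not removed. Read depth is unknown, as is whether the pileup of a wide peak is an average or a summit, and neither the share of cells carrying the mark nor its density per cell can be told apart in such data. Against the labels, Blnk, an adaptor of the B-cell receptor, had 4 peaks in Early-B cells and none in progenitors, and the widest peak at Pax5, a B-lineage transcription factor, covered 16264 bp against 2754 bp, though Pax5 had 5 peaks in Early-B cells and 6 in progenitors. Cd79a, a B-cell receptor gene, had 1 peak in each list, longer in Early-B cells (12338 against 6589 bp) but with the lower −log10 p there (88.9 against 129). The widest peak at the disrupted gene Ebf1 covered 9893 bp in Early-B cells and 9960 bp in progenitors, which does not check the genotype.

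All 10 genes carried H3K4me3 in both lists. A peak met the span or flank of each of the 10 in both cell types, as at 64.5% of all protein-coding genes, and a peak lay over the start of each of the 10 in both, as at 50.8% of all genes. For Kmt2b, Setd1b, Cxxc1 and Kdm5a the start was taken as the gene end with the strongest peak, which favours a peak there, so the count rests on the other 6, whose start is annotated. All 6 had a peak over it in both lists, against 52.3% of the 17492 genes with an annotated start. Taken over all 10 genes, the start peaks were tall for their list. The median pileup was 168 in Early-B cells, against 122 over all 11118 genes with a start peak in both lists. In progenitors it was 220.1 against 157. These heights, and the lengths below, include genes whose start was picked by peak strength, 4 of the 10 and 1973 of the 11118. The bearing of that choice was not tested. In each list 9 of the 10 lay above the all-gene median pileup. The exceptions were Kdm5b in Early-B cells and Setd1b in progenitors. The start peaks were also long, with a median of 4594 bp in Early-B cells against 3279 bp for all genes, and 4569 bp in progenitors against 2923 bp. Above the all-gene median length stood 7 of the 10 in Early-B cells and 9 of the 10 in progenitors.

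**Figure D1:**
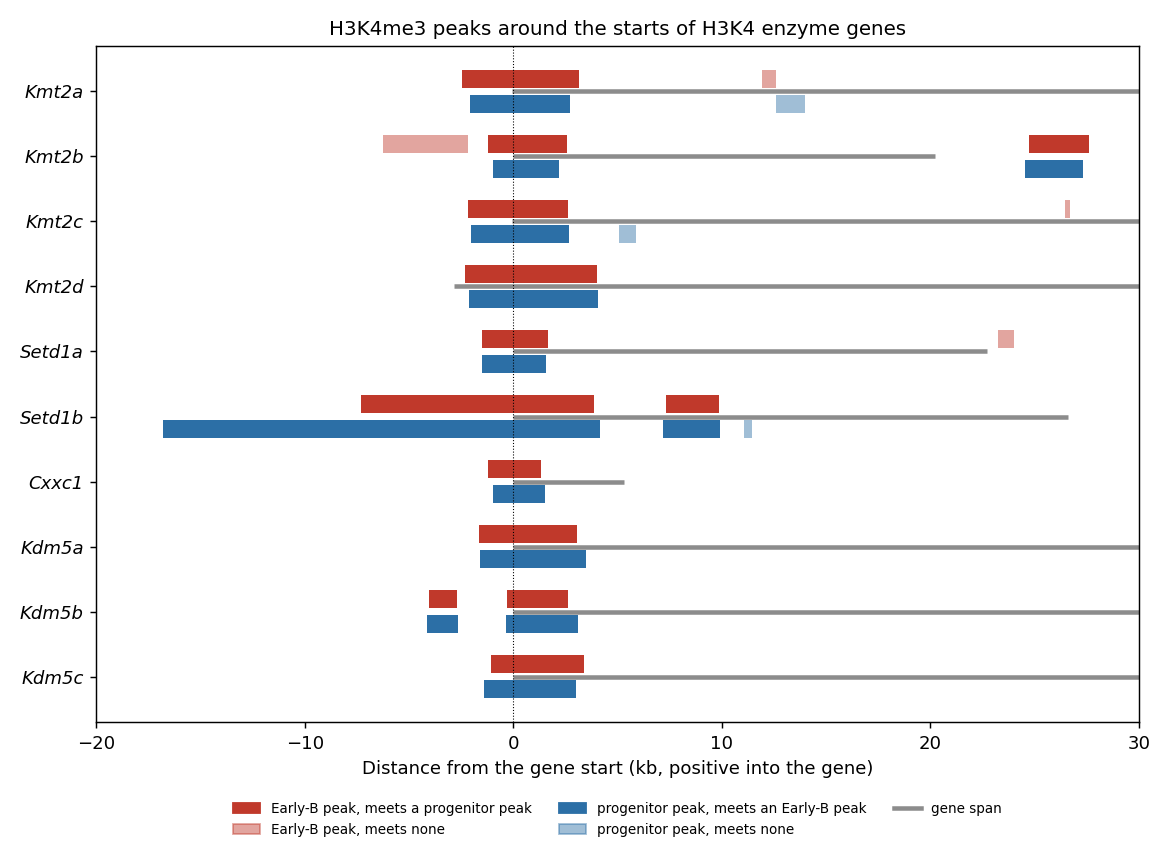
Peaks around the start of each gene, drawn from 20 kb upstream to 30 kb downstream of it, with distance in kb on the horizontal axis and 1 bar per peak in each list; pale bars meet no peak of the other list, grey lines are gene spans, and peaks beyond that window or over 5 kb from the span are not drawn. Every gene has a bar over its start in both lists. The 20954-bp progenitor peak at Setd1b reaches farther upstream than the 11178-bp Early-B start peak. A further Early-B peak of 8038 bp covers the upstream part of that stretch but lies over 5 kb from the span, so it is not drawn.

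Promoter sequence was at hand for 6 of the 10 genes. The 250 bases before the start of 4 of them are printed, from RefSeq on GRCm38.p6 (mm10), because they span the range of CG content and include the genes with the highest and lowest Early-B pileup of the 10. They read 5′ to 3′ on the gene's strand, with every CG dinucleotide, the letters that CXXC zinc fingers read, in capitals. Kmt2c lies at chr5:25498784-25499033 on the minus strand, Kmt2a at chr9:44881290-44881539 on the minus strand, Kdm5b at chr1:134559928-134560177 on the plus strand and Kdm5c at chrX:152232977-152233226 on the plus strand.
Kmt2c: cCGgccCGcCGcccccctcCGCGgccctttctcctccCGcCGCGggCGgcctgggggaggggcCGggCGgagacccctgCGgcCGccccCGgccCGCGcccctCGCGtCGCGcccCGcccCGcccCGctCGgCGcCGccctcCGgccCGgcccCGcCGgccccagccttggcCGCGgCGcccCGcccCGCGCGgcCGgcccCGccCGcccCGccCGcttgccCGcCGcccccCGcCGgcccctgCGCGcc
Kmt2a: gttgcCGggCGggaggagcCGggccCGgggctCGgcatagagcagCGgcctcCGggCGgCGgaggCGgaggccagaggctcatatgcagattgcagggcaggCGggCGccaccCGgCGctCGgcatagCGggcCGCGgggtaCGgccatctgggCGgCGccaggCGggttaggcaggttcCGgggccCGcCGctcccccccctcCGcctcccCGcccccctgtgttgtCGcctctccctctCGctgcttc
Kdm5b: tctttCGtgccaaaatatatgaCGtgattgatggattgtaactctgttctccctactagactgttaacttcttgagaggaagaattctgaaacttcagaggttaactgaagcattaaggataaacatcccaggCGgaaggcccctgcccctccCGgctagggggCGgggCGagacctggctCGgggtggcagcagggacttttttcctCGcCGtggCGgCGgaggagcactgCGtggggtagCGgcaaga
Kdm5c: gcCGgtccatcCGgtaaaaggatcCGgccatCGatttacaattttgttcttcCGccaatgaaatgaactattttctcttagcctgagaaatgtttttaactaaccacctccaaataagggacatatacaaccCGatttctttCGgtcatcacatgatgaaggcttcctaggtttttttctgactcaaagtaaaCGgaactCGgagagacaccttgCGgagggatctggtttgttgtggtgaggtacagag

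The Kmt2c sequence is nearly all G and C. It held 48 CG dinucleotides and 91.6% GC, at percentile 99.8 by CG count among 21263 promoters of the same length, whose median was 10. Kmt2a held 29 CG, Kmt2d 26 and Setd1a 25, all above the median of 17 for the 10849 promoters whose gene had a start peak in both lists. Both demethylase promoters with a sequence held fewer: Kdm5b 13 CG and Kdm5c 10, below that median though not below the 10 of all promoters. Among the promoters with a peak they stood at percentiles 32.6 and 21.8 by CG count. The order by CG content was not the order by pileup: Kdm5c had the highest Early-B pileup of the 10 and Kdm5b the highest progenitor pileup.

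**Figure D2:**
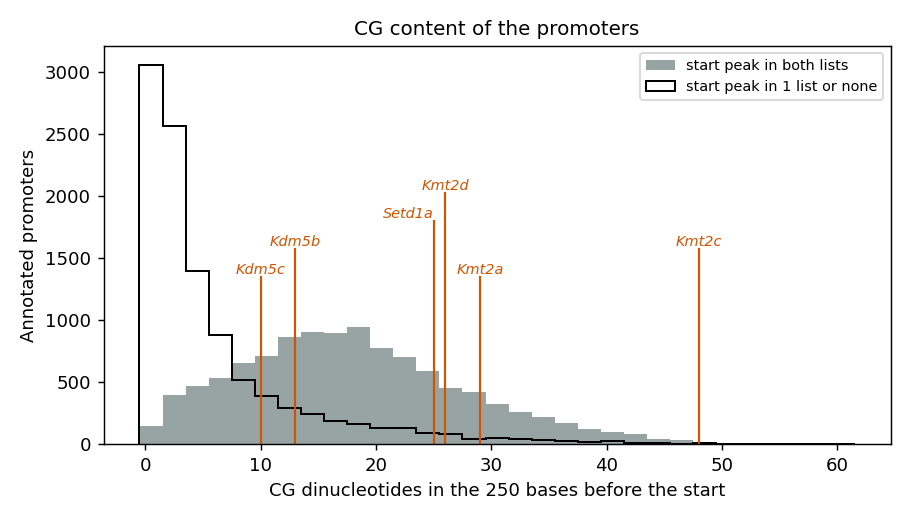
Number of CG dinucleotides in the 250 bases upstream of the start (horizontal axis) against the number of promoters (vertical axis), for promoters whose gene had a start peak in both lists and for the others, with vertical lines at the 6 genes. Kmt2c stands at 48, in the right tail of both distributions, and Kdm5b and Kdm5c stand at 13 and 10, between the medians of 3 and 17.

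Short motifs were searched on both strands of the 6 sequences, and they may overlap each other. The GC box GGGCGG occurred in 4 of the 6, with 12 matches in Kmt2c, 4 each in Kmt2a and Kmt2d and 1 in Kdm5b, and in 62.5% of promoters with a start peak in both lists. CCCNNGGG, the core read by EBF1, occurred in Kmt2d alone of the 6 and in 16.1% of those promoters. CCAAT occurred in Kdm5c alone, against 36.0%. The ETS-type CCGGAAGT, the NRF1-type CGCANGCG, the YY1-type AAGATGGC and the CRE TGACGTCA had no match in the 6, against 6.8%, 15.6%, 2.1% and 2.9% of those promoters.

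Among the methyltransferases, KMT2A and KMT2B form menin-bound complexes and carry CXXC zinc fingers of their own. The Kmt2a start peak (chr9:44878163-44883761 in Early-B cells) covered 5599 bp with a pileup of 168 and a −log10 p of 189. In progenitors it covered 4813 bp with a pileup of 214 and a −log10 p of 256. Its percentile hardly differed, 89.6 in Early-B cells and 91.2 in progenitors, and the Early-B peak was longer on both sides of the start, reaching 2472 bp upstream and 3126 bp downstream against 2093 and 2719 bp. A second peak shared by both lists lay in the flank, at the start of Tmem25, a neighbouring gene. It also met Ttc36, another neighbour. Its pileup was 44.3 in Early-B cells and 118 in progenitors.

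Kmt2b was placed lower in Early-B cells. Its start peak (chr7:30586508-30590296 in Early-B cells) covered 3789 bp with a pileup of 150.3, at percentile 77.3. The progenitor peak covered 3167 bp with a pileup of 227, at percentile 95.3. The difference was −18.0 percentile points, and 10.5% of all genes had a lower one. It came to −7.9 points when genes were ranked by fold in place of pileup. The same peak reached into Zbtb32, which lies 623 bp away and encodes a zinc-finger repressor of lymphocytes. Over an annotated start of Zbtb32, within the Kmt2b flank, lay a 4069-bp peak (chr7:30591253-30595321) that only the Early-B list held, with a pileup of 51.9 and a −log10 p of 30.8, the strongest unshared peak at any of the 10 genes. A flank peak at Psenen and U2af1l4 was shared, with a pileup of 143 in Early-B cells and 196 in progenitors.

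Kmt2c and Kmt2d had start peaks that differed little between the lists. The Kmt2c peak (chr5:25496179-25500964 in Early-B cells) covered 4786 bp with a pileup of 198, and in progenitors 4696 bp with a pileup of 249. Its percentiles of 97.9 and 98.8 were the highest of the 6 methyltransferases in each list. The Kmt2d peak (chr15:98867206-98873534 in Early-B cells) covered 6329 bp with a pileup of 167, and in progenitors 6179 bp with a pileup of 213. The annotated start used lies inside the gene span, and the peak lay wholly within that span in both lists. Most of it was downstream of that start, 3999 bp against 2329 bp upstream in Early-B cells and 4064 against 2114 bp in progenitors. More downstream than upstream is the common form: it held at 74.5% of the 9145 genes with an annotated start in Early-B cells and at 78.1% in progenitors. At the opposite end of Kmt2d a second shared peak covered the start of Prkag1, an AMP-activated kinase subunit gene 160 bp away, with pileups of 110.1 and 129.

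Inside the 227061-bp span of Kmt2c, far from its start, the Early-B list held a 3324-bp peak (chr5:25377519-25380842) that the progenitor list lacked. Its pileup of 27.8 and −log10 p of 10.5 were small beside the start peak, whose −log10 p was 234.

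SETD1A and SETD1B are the catalytic subunits of the complexes that CXXC1 joins. The Setd1a start peak (chr7:127775860-127779062 in Early-B cells) covered 3203 bp with a pileup of 177, and in progenitors 3055 bp with a pileup of 227. It sat nearly evenly about the start, with 1529 bp upstream and 1673 bp downstream in Early-B cells, and its percentiles of 93.2 and 95.5 were close. The Cxxc1 peak, on chromosome 18, was the shortest of the 10 in both lists, 2536 bp with a pileup of 145 in Early-B cells and 2473 bp with a pileup of 183 in progenitors. Its percentiles were 72.7 and 71.4, and no other peak met the gene or its flanks.

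Setd1b had the longest peak of the 10 and the one whose outline differed most. In progenitors 1 peak (chr5:123125249-123146202) ran over 20954 bp, with a pileup of 140.1, and only 3 of the 31414 progenitor peaks, itself included, were at least as long. In Early-B cells the same stretch was covered by a pair of peaks 1615 bp apart. The one over the Setd1b start (chr5:123134718-123145895) covered 11178 bp with a pileup of 149, and the other (chr5:123125065-123133102) covered 8038 bp with a pileup of 35.9. The latter lay beyond the 5-kb flank and is not in the counts of peaks below. The pair covered 19216 bp in all. By pileup the Setd1b start peak stood at percentile 75.9 in Early-B cells and 38.7 in progenitors, a difference of 37.2 points that 2.28% of genes exceeded. The progenitor peak reached 16791 bp upstream of the Setd1b start and the Early-B start peak 7322 bp. Both also met a neighbouring gene, so in neither list do length, pileup and percentile belong to Setd1b alone. The bearing of that on the difference was not tested. A second peak inside Setd1b was shared, 2535 bp with a pileup of 52.6 in Early-B cells and 2749 bp with a pileup of 93.7 in progenitors.

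Among the demethylases, Kdm5a, which encodes the retinoblastoma-binding member of the family, had the most even values. Its only peak (chr6:120362426-120367150 in Early-B cells) covered 4725 bp with a pileup of 181 in Early-B cells, and 5083 bp with a pileup of 234 in progenitors. The percentiles were 94.5 and 96.9. The peak also covers the edge of Ccdc77, whose span overlaps that of Kdm5a by 271 bp, so the signal belongs to both genes.

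Kdm5b, whose product is also called PLU-1, had the largest difference in percentile of the 10. In progenitors its start peak (chr1:134559842-134563267) covered 3426 bp with a pileup of 269.8, a fold of 34.8 and a −log10 p of 363, the highest of the 10 genes on all 3 values. In Early-B cells the peak (chr1:134559871-134562783) covered 2913 bp with a pileup of 90.9, a fold of 12.6 and a −log10 p of 81.1, the lowest of the 10 on all 3. Its percentile was 99.7 in progenitors and 29.1 in Early-B cells, a difference of −70.6 points, where the median absolute difference over all genes was 7.9. Only 7 of the 11118 genes had a lower difference: Zfp768, Reck, Brwd1, Sema4c, Tsc22d1, Arl4c and Kdm7a, from −77.2 to −71.5 points. Kdm7a encodes another histone demethylase, of H3K9 and H3K27.

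The Kdm5b peak differed less in outline than in height. It reached 336 bp upstream of the start in progenitors and 307 bp in Early-B cells, and 3089 and 2605 bp downstream, so the shorter Early-B peak ended earlier inside the gene. In both lists the start peak also touched Mgat4e, a gene whose span overlaps that of Kdm5b by 1569 bp. No peak taken at Kdm5b lay over the annotated start of Mgat4e. A second shared peak in the flank, inside Mgat4e, had a pileup of 158 in progenitors and 57.9 in Early-B cells. Among peaks that met the other list, this second peak stood at percentile 79.7 in progenitors and 59.0 in Early-B cells, and the start peak at 99.8 and 69.0, so both stood lower in Early-B cells.

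Kdm5c, an X-linked gene whose loss causes intellectual disability in humans, differed in the other direction. Its start peak (chrX:152232143-152236606 in Early-B cells) covered 4464 bp with a pileup of 202, the highest of the 10 in that list. In progenitors it covered 4442 bp with a pileup of 176. Its percentile was 98.3 in Early-B cells and 65.5 in progenitors, a difference of 32.8 points that 3.14% of genes exceeded. X-linked genes as a whole stood somewhat higher in the Early-B list: 74.0% of 308 had the higher percentile there, against 48.2% of 10810 autosomal genes, with median differences of 3.6 and −0.4 points. Of the X-linked genes 38, or 12.3%, exceeded the difference of Kdm5c. The part of this chromosome-wide difference in the value for Kdm5c was not tested.

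**Figure D3:**
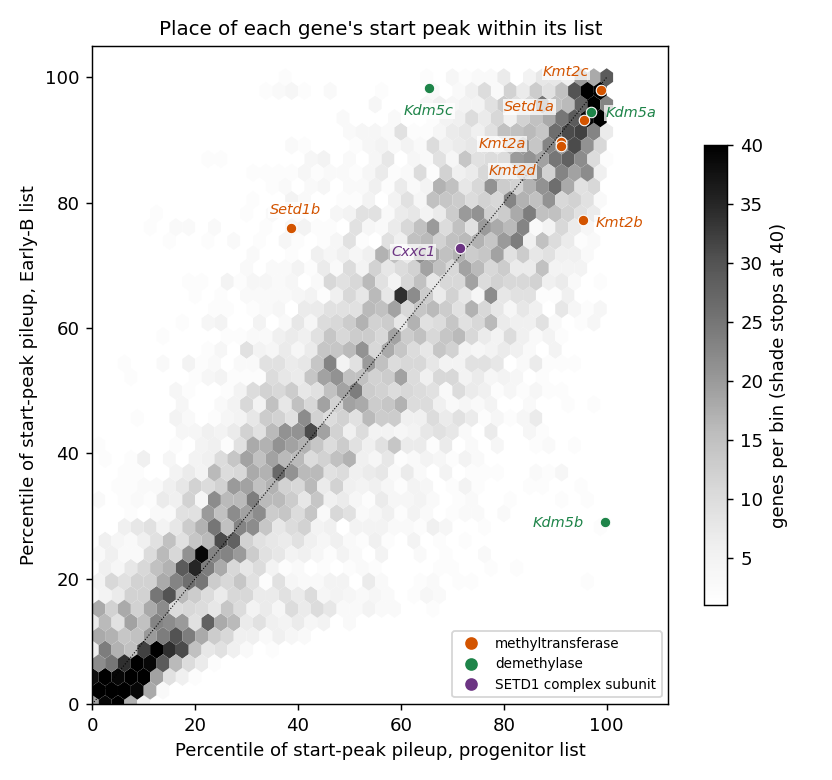
Percentile of start-peak pileup in the progenitor list (horizontal) and the Early-B list (vertical) for the 10 genes as coloured points, over grey bins that count all 11118 genes with a start peak in both lists; the dotted line marks equal percentiles. Kdm5b lies far below the line at 99.7 and 29.1, Setd1b and Kdm5c lie above it, Kmt2b lies 18.0 points below it, and the other 6 genes lie between −2.4 and 1.3 points from it.

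In length most of the 10 start peaks differed little between cell types, with Setd1b far apart. There the Early-B list held a pair of peaks, 19216 bp in all, over much the same stretch as the progenitor peak of 20954 bp. Only the peak of the pair that lay over the start is compared here. The Early-B peak was the longer at 7 of the 10, against 64.1% of all genes. By at least 10% it was longer at 2 of the 10, Kmt2a and Kmt2b, against 46.2% of all genes. The progenitor peak was longer by at least 10% at Setd1b and Kdm5b, 2 of the 10, against 21.6%. The other 6 had lengths within 10% of each other, which held at 33.6% of all genes. The median ratio of Early-B to progenitor length was 1.02 for the 10 and 1.08 for all genes, and at 9 of the 10 the shared stretch made up at least 80% of the longer peak, Setd1b being the exception, against 57.2% of all genes.

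**Figure D4:**
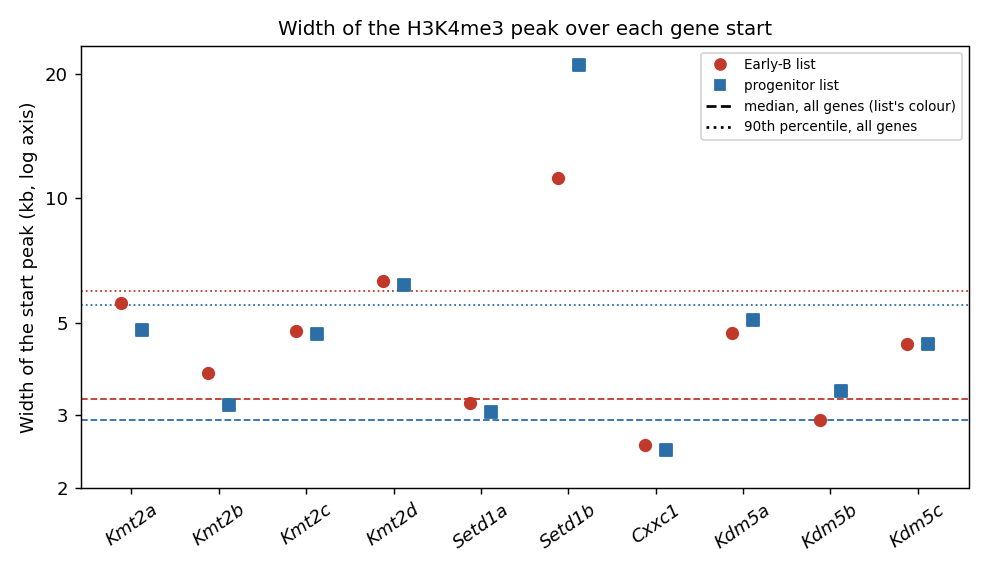
Length in kb, on a log axis, of the start peak of each gene in both lists, with dashed and dotted lines at the median and the 90th percentile of all 11118 genes in each list. The paired points lie within 10% of each other at 6 genes, and Setd1b stands apart at 11178 bp in Early-B cells and 20954 bp in progenitors.

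Counting every peak at the 10 genes gave 21 in Early-B cells and 20 in progenitors. The median was 2 per gene in each list, the same as over all protein-coding genes with a peak. Of the Early-B peaks 15, or 71.4%, met a progenitor peak, against 61.5% of the peaks at all protein-coding genes. Of the progenitor peaks 15, or 75%, met an Early-B peak, against 78.8%. The unshared progenitor peaks were weak: the 5, at Kmt2a, Kmt2c and Setd1b, had a −log10 p of at most 2.31, while every shared progenitor peak had at least 83.2. None of those 5 reached a q of 0.05, a level missed by 77.9% of unshared progenitor peaks at all genes. Of the 6 unshared Early-B peaks 3 missed it, near the 49.3% at all genes. The 3 that reached it were the Zbtb32 peak beside Kmt2b, the peak inside Kmt2c, and a 759-bp flank peak at Hsd3b7 beside Setd1a.

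A wider list of 36 genes of H3K4 methylation, its shared subunits, readers and other demethylases, was read beside the 10. A peak met the span or flank of 34 of the 36 in both lists, against the 64.5% of all genes. Smyd1, a muscle methyltransferase gene, had only a weak 410-bp Early-B peak, and the Y-linked Kdm5d had none. A start peak in both lists was found for 32 of the 36, against 50.8%. The 4 without one in either list included Ash2l and Ncoa6, a gene of the KMT2C or KMT2D complex. Both genes had strong peaks in both lists but none over the start as taken here. Of the 32, 16 were longer in Early-B cells, a lower share than the 64.1% of all genes. The strongest peak of the list in either cell type lay at Ing2, which encodes a reader of H3K4me3, whose −log10 p reached 332 in Early-B cells and 402 in progenitors. Next came Ash2l, a core subunit of the complexes, with 234 in Early-B cells, then Ing1, another reader, with 232, and Taf3, a TFIID subunit that binds the mark, with 218. In progenitors Ing1 at 304, Taf3 at 294 and Setd7, a lysine methyltransferase gene, at 289.6 followed Ing2. The genes named next were picked for their values. Percentiles of 4 genes, Hcfc2, Kdm6a, Smyd3 and Prdm9, were more than 20 points lower in Early-B cells, and that of 1 gene, Phf8, was more than 20 points higher, out of 32. Over all genes the shares beyond these margins were 8.94% and 8.66%, so the counts lay near the background. Both Phf8, which encodes a demethylase of H3K9 and H4K20 that binds H3K4me3, and Kdm6a, an H3K27 demethylase gene, are X-linked like Kdm5c. Phf8 stood at 90.7 in Early-B cells and 31.7 in progenitors, and Kdm6a at 67.9 and 94.4, so the X-linked genes of the list did not all differ in the direction of Kdm5c.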

How the data were processed

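H3K4me3 was measured by ChIP-seq, and 2 deposited broad-peak lists, 1 for Early-B cells and 1 for Ebf1-/- progenitors, were read. The tools named in the submitters' processing notes are MACS 1.4.3 and the aligner Bowtie 1.1.2, beside 2 builds, GRCh38 and mm10, whose roles are not stated. The columns resemble a later MACS layout. Pooling of samples, use of input and calling settings: not given in the sources used here. Per the file headers each peak has a pileup signal and a fold ratio (fold enrichment); the −log10 p and −log10 q columns have damaged names in the deposited files and were read from their order and values. Each list was assigned to its group by its name. Gene spans and promoters came from RefSeq (GRCm38.p6). The start of a gene was its annotated start for 6 of the 10 genes and 9145 of 11118, and otherwise the gene end with the strongest peak. Any overlap of 1 bp counted as shared. Percentiles were taken among genes with a start peak in both lists. The named genes were all 10, neighbours whose span or end a peak met, and, of the wider list, those without a peak in both lists and the 4 of highest −log10 p in each. A neighbour of Setd1b is not reported here. The genes beyond Kdm5b in percentile difference, Ncoa6, and those of the wider list over 20 points apart were named after their values were seen. The members and lists were chosen with earlier results of these data known. Scripts ran in Python 3.11.15 with pandas 2.3.3, matplotlib 3.10.9, scipy 1.17.1 and numpy 2.4.6, and were checked on simulated peaks. With 1 list per group no test was made. Read depth is unknown, so no counting interval is given. Alternatives were a q threshold of 0.05, a stricter −log10 p, stricter overlaps, no flank or a longer one, the strongest peak in place of the start peak, lists of equal length, and, added after seeing the data, a length margin and ranking by fold or −log10 p or among genes with an annotated start.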

Additional observations from a re-analysis of the deposited data

How the results depend on the processing

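Of 42 values recomputed under another setting, 0 reversed and 4 moved beyond the margin set: 1.5 times for a count or percentile difference, the main value's 95% binomial interval for a share. The other 38 stayed within it, a wide margin at this number of peaks: Early-B peaks at the 10 genes ran from 15 to 28 and progenitor peaks from 15 to 27, and the shared Early-B share reached 88.2%. The q and −log10 p thresholds, both other flanks and lists of equal length each kept all 10 genes in both lists. A −log10 p threshold of 50 left 12 Early-B peaks at the 10 genes in place of 21. Keeping only peaks with a q of at most 0.05 raised the shared progenitor share from 75% to 100%. Asking for a length margin of 10%, chosen after seeing the data, lowered the genes longer in Early-B cells from 7 to 2. Ranking by fold moved Kmt2b from −18.0 to −7.9 points; the cause was not tested. Ranked among gene starts, the Kdm5b difference ranged from −71.7 to −67.7 points, that of Kdm5c from 25 to 33.2 and that of Setd1b from 34.1 to 37.9. The gap was smaller among all peaks that met the other list. There the Kdm5b start peak stood at percentile 99.8 in progenitors and 69.0 in Early-B cells. No paired analysis was possible because each group had 1 list. Without replicates no difference between the lists can be set against the spread between cultures, and a list difference and a cell type difference cannot be told apart.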
